A study of Mus musculus with 7 samples.

Results

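The FGF receptors are the genes Fgfr1, Fgfr2, Fgfr3, Fgfr4 and Fgfrl1, found by matching the Ensembl identifiers of the count table to these mouse symbols. All 5 were in the table of 42687 gene identifiers, and all 5 were among the 14304 genes with enough counts to be compared between diets. RNA was measured in cells positive for CD24 and CD29 (integrin beta 1), which the labels call skeletal stem cells, sorted by flow cytometry from digested femurs of C57BL/6 mice. Feeding began at 3 months of age and lasted 4 weeks, with 60% fat in the high fat diet (HFD, 3 libraries, replicates 2 to 4) and 10% fat in the low fat diet (LFD, 4 libraries, replicates 1 to 4). No sex is given in the labels, and they do not tie the libraries to different mice, so the spread between libraries, and the p-values that rest on it, may be technical in part. The 5 genes were chosen by name with the HFD against LFD values of these libraries already known, in which Fgfr4 had stood among the genes lower in HFD, so their values by diet are given as a description with no test.

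FGF receptors are cell surface proteins whose outer part binds fibroblast growth factors together with heparan sulfate chains. Binding pairs 2 receptors and switches on the tyrosine kinase inside the cell, which signals through the adaptor FRS2 and the RAS and MAPK proteins. Fgfr1 to Fgfr4 encode receptors with this kinase, while Fgfrl1 encodes a relative that binds the same ligands and lacks it. In the skeleton Fgfr3 is the receptor of growth plate cartilage, where its activity restrains growth. Fgfr1 and Fgfr2 act in osteoblasts and their precursors, and Fgfr4 in mice is known from liver and from muscle progenitors.

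Total counts ranged from 17391613 to 24681838 per library. Cd24a and Itgb1, the genes of the 2 sorting antigens, averaged 2074 ± 1160 and 445 ± 59.7 CPM in HFD (SD, n = 3), against 3467 ± 1446 and 425 ± 57.8 CPM in LFD (SD, n = 4). CPM is the count of a gene relative to the library total after TMM scaling. Markers of chondrocytes summed to 36200 to 61600 CPM in HFD and 22400 to 47100 CPM in LFD. The 6 osteoblast markers summed to 22200 to 34300 CPM in HFD and 8460 to 25800 CPM in LFD, and markers of blood cells were also present. The summed level of 9 erythroid markers was 22100 to 107000 CPM in HFD and 92000 to 158000 CPM in LFD, lowest in HFD 2. Neutrophil markers summed to 7700 to 15500 CPM in HFD and 905 to 5060 CPM in LFD, and the 7 markers of reticular stroma to 1450 to 2470 CPM in HFD and 157 to 398 CPM in LFD. Xist had 0 counts in each HFD library and 257 to 526 in each LFD library, and 4 Y-linked genes together had 2494 to 3405 counts in HFD and 1 to 5 in LFD. Diet and the sex that these transcripts mark therefore cannot be told apart. In RNA from mixed cells, fewer cells of a type and less RNA per cell cannot be told apart either.

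Fgfr4 was the receptor whose diet groups stood apart. It had 71.0, 93.4 and 84.5 CPM in HFD 2, 3 and 4, against 286.7, 173.8, 182.2 and 165.4 CPM in LFD 1, 2, 3 and 4. Every HFD library lay below every LFD library, and LFD 1 lay far above the other LFD libraries. The means were 82.95 ± 11.25 CPM in HFD (SD, n = 3) and 202.0 ± 56.9 CPM in LFD (SD, n = 4), a log2 fold change of -1.28 ± 0.26 (SE, HFD over LFD) in edgeR's fit. Without LFD 1 the log2 fold change was -1.06. Fgfr4 (ENSMUSG00000005320) lies on chromosome 13, 55152640 to 55168759 on the plus strand of mm10, and shares no bases with another annotated gene. The raw counts behind it, 1771 to 7357 per library, leave little error from counting reads. Read depth says nothing of variation that arose before counting, such as in amplification.

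**Figure D1:**
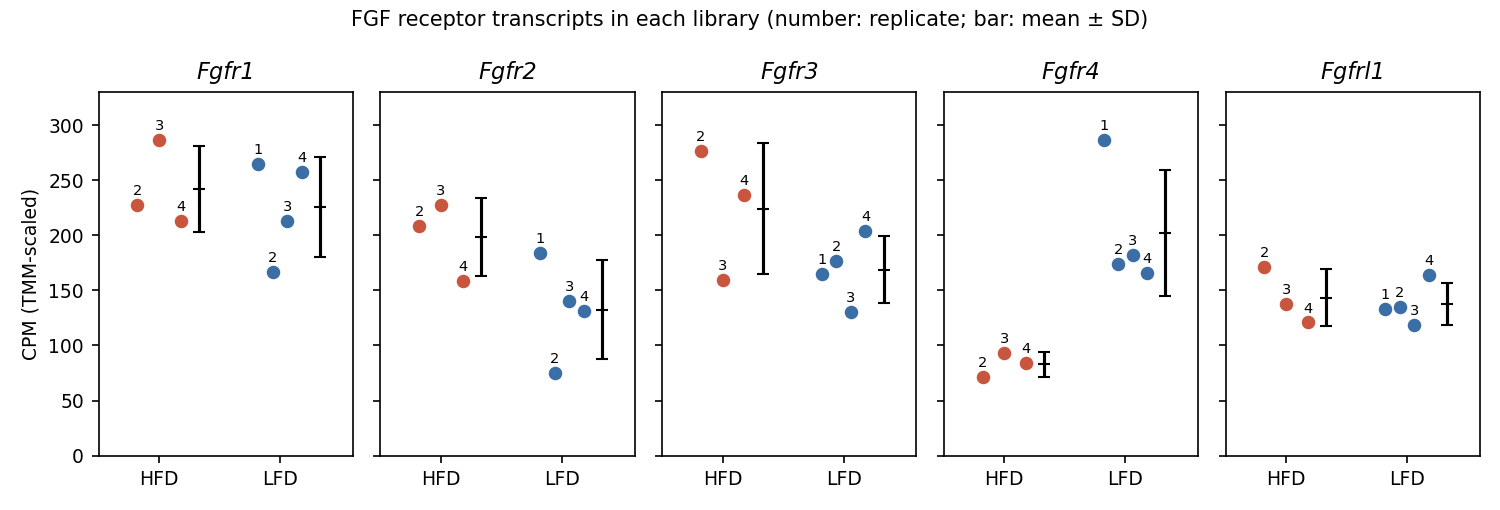
CPM of each FGF receptor gene in each library (points, numbered by replicate) with the mean and SD of each diet group (black bars). Fgfr4 reached at most 93.4 CPM in the 3 HFD libraries and at least 165.4 CPM in the 4 LFD libraries, while the groups overlapped for the other 4 genes.

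Among genes whose groups did not overlap, Fgfr4 belonged to the lower side in HFD, which held 497 of the 14304 genes tested (3.47%). Its separation entered into the choice of these genes, so that share is given for scale and nothing is read from it. The other 4 receptors had overlapping groups.

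The profile of Fgfr4 over the libraries was set beside those of other genes. Likeness was measured as the root mean square difference between log2 CPM values, each gene centred on its own mean over the 7 libraries, among 8987 other genes with a mean of at least 8 CPM. The 3 genes closest to Fgfr4 were Ltbp4 (difference 0.115), which encodes a binding protein of latent TGF-beta in the matrix, Iffo1 (0.143) and Myf5 (0.144), against a median of 0.792 over all these genes. Myf5, a transcription factor of muscle satellite cells, the stem cells of muscle fibres, had 35.3, 36.9 and 38.9 CPM in HFD 2, 3 and 4, against 110.6, 72.7, 87.05 and 63.3 CPM in LFD 1, 2, 3 and 4. As with Fgfr4, LFD 1 was the highest library and the groups did not overlap. Ltbp4 likewise averaged 77.4 ± 14.2 CPM in HFD and 185.3 ± 60.9 CPM in LFD. Profiles that share 7 libraries and a diet difference of like size come close to each other for that reason, so these values are a description.

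**Figure D2:**
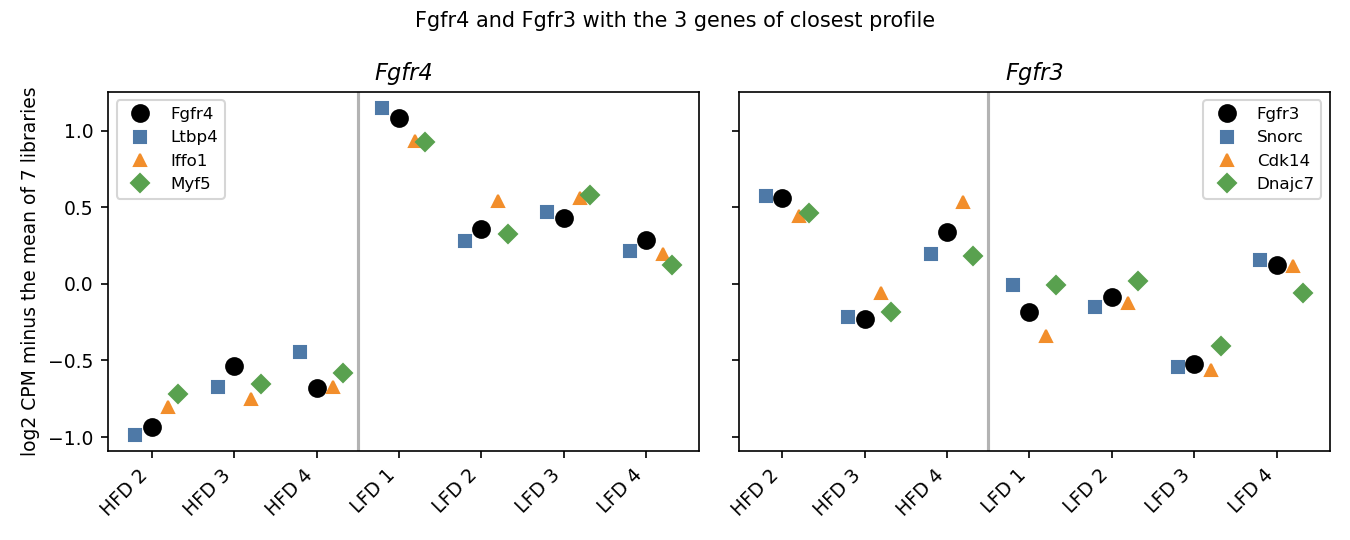
Log2 CPM of Fgfr4 (left) and Fgfr3 (right) in each library, centred on the mean of the 7 libraries, with the 3 genes of closest profile in each panel (coloured symbols). A grey line parts the HFD from the LFD libraries. Fgfr4 and its 3 neighbours are below 0 in each HFD library and above 0 in each LFD library, and Fgfr3 has no such split.

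All 6 muscle satellite cell markers in the list had a lower mean in HFD, and none was at 0 in any library. They summed to 434, 495 and 402 CPM in HFD 2, 3 and 4, against 816, 540, 1020 and 720 CPM in LFD 1, 2, 3 and 4. Groups did not overlap for 3 of them, Myf5, the myogenic factor Myod1 and the muscle cadherin gene Cdh15, beside 3.47% of all genes tested on that side. Myf5 was also among the 3 genes closest to Fgfr4, so the list is not independent of that profile. Pax7, the defining factor of quiescent satellite cells, measured 7.07 ± 4.58 CPM in HFD and 15.5 ± 5.93 CPM in LFD. The surface lectin Chodl (279 ± 21.6 CPM in HFD and 417 ± 124 CPM in LFD) and the calcitonin receptor Calcr (21.2 ± 5.52 and 32.3 ± 7.87 CPM, in the same order of diets) had overlapping groups. The part of these cells in the Fgfr4 difference was not tested.

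Promoter sequence is shown for Fgfr4, the receptor that stood apart, beside Fgfr3, whose groups overlapped. Each line holds the 250 bases before the annotated transcription start from RefSeq (GRCm38.p6), in lower case with CpG pairs in capitals. The Fgfr4 window is chr13:55152568-55152817 and the Fgfr3 window, for the first of 2 listed starts, chr5:33721474-33721723, both on the plus strand. By the GENCODE coordinates used for the genes, the spans begin inside these windows, at 55152640 for Fgfr4 and 33721674 for Fgfr3. The later bases of each window, most of them at Fgfr4, therefore lie within the annotated gene.
Fgfr4: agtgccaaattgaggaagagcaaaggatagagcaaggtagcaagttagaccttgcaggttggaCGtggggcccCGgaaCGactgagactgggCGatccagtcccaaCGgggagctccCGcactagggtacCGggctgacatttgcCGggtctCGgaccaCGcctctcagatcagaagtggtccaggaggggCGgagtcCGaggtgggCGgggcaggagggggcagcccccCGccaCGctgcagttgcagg
Fgfr3: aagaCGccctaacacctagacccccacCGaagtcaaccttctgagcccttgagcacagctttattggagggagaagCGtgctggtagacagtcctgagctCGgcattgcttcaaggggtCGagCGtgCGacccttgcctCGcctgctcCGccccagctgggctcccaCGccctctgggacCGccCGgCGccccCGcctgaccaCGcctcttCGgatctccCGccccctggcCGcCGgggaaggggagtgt
The Fgfr4 window held 15 CpG pairs at 64.0% GC and the Fgfr3 window 19 CpG pairs at 66.8% GC, against a median of 6 CpG pairs and 52.4% GC over 32851 promoters. More CpG pairs than in 72.7% of promoters were thus present at Fgfr4, and more than in 80.3% at Fgfr3. The GC box GGGCGG, on either strand, occurred 2 times in the Fgfr4 window and 3 times in the Fgfr3 window and in 32.7% of all promoters. TATAAA was in neither window and in 12.4% of promoters. CAGCTG, an E-box, was found 1 time in the Fgfr3 window, 0 times in the Fgfr4 window and in 13.0% of promoters. The window of the second Fgfr3 start, not printed, held CAGCTG 0 times and GGGCGG 2 times, as at Fgfr4, with 24 CpG pairs at 72.8% GC. A match of letters is a description of the window and says nothing of binding. The table also held a start for Fgfr2, with 2 CpG pairs at 44.0% GC, and for Fgfrl1, with 30 CpG pairs at 73.6% GC.

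Fgfr3 had 276, 160 and 236 CPM in HFD 2, 3 and 4, against 165, 176, 130 and 203.5 CPM in LFD 1, 2, 3 and 4. HFD 2 was the highest library, HFD 3 lay below 3 of the 4 LFD libraries, and the groups overlapped (224 ± 59.3 CPM in HFD, 169 ± 30.4 CPM in LFD, log2 fold change 0.41 ± 0.25). This value moved to 0.00 with limma-voom and quality weights. The gene closest to Fgfr3 was Snorc, which encodes a small membrane proteoglycan of cartilage (difference 0.090, median over genes 0.543). Snorc measured 253 ± 68.3 CPM in HFD and 201 ± 39.5 CPM in LFD. Next came Cdk14 (0.125), a cyclin-dependent kinase gene, and Dnajc7 (0.134), a co-chaperone gene. The 10 chondrocyte markers summed to 61600, 36200 and 44700 CPM in HFD 2, 3 and 4, against 22400, 40500, 31600 and 47100 CPM in LFD 1, 2, 3 and 4. Within the HFD libraries their order was that of Fgfr3, and within the LFD libraries LFD 4 came first for both. The lowest LFD library was not the same, LFD 1 for the markers and LFD 3 for Fgfr3. Fgfr3 (ENSMUSG00000054252) lies on chromosome 5, 33721674 to 33737068, plus strand.

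Fgfr2 (ENSMUSG00000030849) measured 208, 228 and 159 CPM in HFD 2, 3 and 4, against 184, 74.65, 140 and 131 CPM in LFD 1, 2, 3 and 4. It varied most among the LFD libraries, 2.46-fold between LFD 2, the lowest, and LFD 1, the highest. HFD 4 lay below LFD 1, so that the groups overlapped (198 ± 35.4 CPM in HFD, 132 ± 44.9 CPM in LFD, log2 fold change 0.58 ± 0.31). The closest profiles were those of Ube2w (0.124), which encodes a ubiquitin-conjugating enzyme, Col6a2 (0.126), a chain of collagen VI, and Abi2 (0.134), against a median of 0.640. Col6a2 measured 1083 ± 162 CPM in HFD and 781.5 ± 206 CPM in LFD.

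Fgfr1 (ENSMUSG00000031565, chromosome 8, 25513654 to 25575718, plus strand) was nearly level between the diets. It had 227, 286 and 213 CPM in HFD 2, 3 and 4, against 264.5, 167, 213 and 258 CPM in LFD 1, 2, 3 and 4. HFD 3 was the highest library, LFD 2 was the lowest, and the log2 fold change of 0.10 ± 0.24 was -0.02 without LFD 2 and likewise -0.02 without HFD 3. The closest profiles, Kctd3 (0.067), Kank1 (0.067) and Htatsf1 (0.073), were likewise flat, with a median over genes of 0.474.

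Fgfrl1 (ENSMUSG00000008090, chromosome 5, 108692382 to 108706924, plus strand) varied least of the 5 genes, 1.44-fold between its lowest and highest library. It had 171, 137 and 121 CPM in HFD 2, 3 and 4, against 133, 135, 119 and 164 CPM in LFD 1, 2, 3 and 4. HFD 2 and LFD 4, the highest of their groups, were also the highest for Fgfr3. The log2 fold change of 0.06 ± 0.21 was -0.10 without HFD 2 and -0.22 in a fit that held the share of erythroid counts. Among the receptors the closest pair of profiles was Fgfr1 and Fgfrl1 (difference 0.263), followed by Fgfr3 and Fgfrl1 (0.272), and the pair farthest apart was Fgfr2 and Fgfr4 (0.988).

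Levels between genes were compared as CPM per kilobase, with the length of all annotated exons of a gene joined. Over the 7 libraries Fgfrl1 had 50.35 ± 7.30 CPM per kilobase, Fgfr4 42.6 ± 21.3, Fgfr3 26.9 ± 7.001, Fgfr1 23.6 ± 4.05 and Fgfr2 15.55 ± 4.998 (SD, n = 7). Each was above 82.1% to 94.5% of the tested genes that had a length. No pair of neighbours in this order passed an adjusted p of 0.05 in an exact two-sided sign-flip permutation test of the log2 ratio within libraries, adjusted over the 4 pairs. Fgfr1 lay above Fgfr2 in 7 of 7 libraries (ratio 1.58, exact p = 0.0156, which is the smallest that 7 libraries can give, adjusted p = 0.0625). After adjustment over 4 pairs, a pair alone at that smallest value cannot pass 0.05, so its failure to pass says little. The order of the pairs was itself taken from these levels. Fgfrl1 lay above Fgfr4 in 4 of 7 libraries (exact p = 0.25, adjusted p = 0.333), Fgfr4 above Fgfr3 in 5 of 7 (exact p = 0.188, adjusted p = 0.333), and Fgfr3 above Fgfr1 in 4 of 7 (exact p = 0.359, adjusted p = 0.359).

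The order rested on the length used and on the diet. Per kilobase of the longest annotated transcript, the levels were 60.15 ± 8.71 for Fgfrl1, 46.2 ± 7.94 for Fgfr1, 45.4 ± 22.7 for Fgfr4, 45.3 ± 11.8 for Fgfr3 and 36.3 ± 11.65 for Fgfr2. The joined exons of Fgfr1 and Fgfr2 reach 9875 and 10328 bases, while their longest transcripts have 5041 and 4429. For Fgfr4 the same lengths are 3542 and 3324 bases. By the longest transcript, Fgfr1 lay above Fgfr2 in 6 of 7 libraries (ratio 1.32, exact sign-flip p = 0.0312, adjusted p = 0.125). Fgfr4 lay below Fgfr3 in the HFD libraries on average (ratio 0.76, lower in 2 of 3) and above it in each of the 4 LFD libraries (ratio 2.39). The genes have 9 annotated coding transcripts for Fgfr1, 17 for Fgfr2, 13 for Fgfr3, 1 for Fgfr4 and 4 for Fgfrl1, and counts per gene do not part the IIIb and IIIc forms that differ in ligand choice.

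As a share of the summed receptor level, Fgfr4 made up 15.8% ± 3.0 in HFD and 34.2% ± 5.8 in LFD by joined exons, and 10.9% ± 2.1 in HFD and 25.8% ± 4.6 in LFD by the longest transcript (SD, n = 3 and n = 4). Fgfr3 made up 20.9% ± 5.1 in HFD and 14.3% ± 2.7 in LFD, and Fgfr2 12.8% ± 1.8 in HFD and 7.6% ± 2.0 in LFD, by joined exons. Shares sum to the whole, so a lower share of Fgfr4 raises the others. The summed level itself was 150 ± 13.1 CPM per kilobase in HFD and 166 ± 23.8 in LFD, within the spread between libraries.

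**Figure D3:**
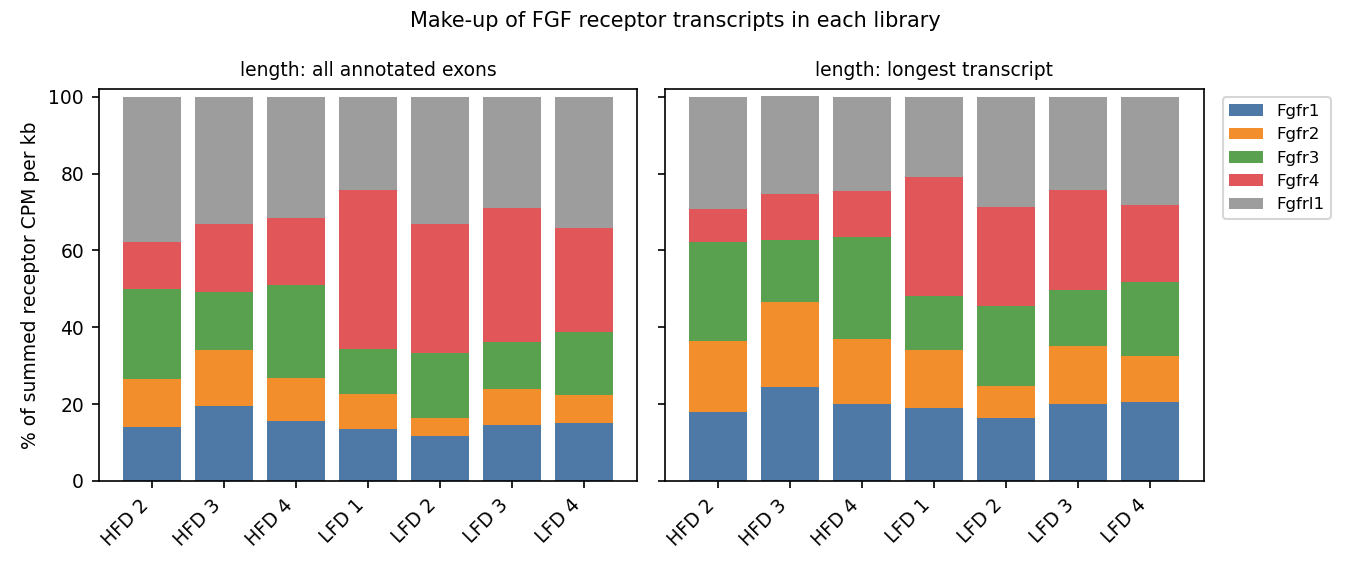
Share of each receptor gene in the summed receptor CPM per kilobase, as stacked bars for each library, with length from all annotated exons (left) or the longest transcript (right). The red Fgfr4 segment averages 15.8% in HFD and 34.2% in LFD in the left panel, and 10.9% and 25.8% for the same diets in the right panel.

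Next to other receptor tyrosine kinases, the FGF receptors ranked high in these cells. Of 58 such genes, the 4 FGF receptors with a kinase ranked 1 (Fgfr4), 3 (Fgfr3), 4 (Fgfr1) and 6 (Fgfr2) by mean CPM per kilobase of joined exons, and 2, 3, 1 and 5 by the longest transcript, over the mean of all 7 libraries. Within HFD, Fgfr4 ranked 5 by joined exons with 23.4 ± 3.18 CPM per kilobase, below Axl (38.5 ± 9.91), Fgfr3 (31.3 ± 8.28), Pdgfrb (28.6 ± 10.2) and Fgfr1 (24.5 ± 3.93). Within LFD it ranked 1 with 57.0 ± 16.05 CPM per kilobase, ahead of Axl (33.8 ± 13.8). By the longest transcript it ranked 6 in HFD and 1 in LFD. Axl, the receptor for the ligand GAS6, had 35.8 ± 11.6 CPM per kilobase of joined exons, and Pdgfrb, a receptor for platelet-derived growth factor on stromal cells, 17.9 ± 11.9, over all libraries. The collagen receptors Ddr2 (11.3 ± 2.92) and Ddr1 (9.66 ± 2.86) and the Wnt co-receptor Ryk (9.83 ± 5.03) followed. Of 36 other receptor tyrosine kinase genes tested between the diets, 0 reached an adjusted p of 0.05 in edgeR, which 5 of all 14304 did (0.035%). At an unadjusted p under 0.05 there were 9 of the 36, against 7.53% of all genes.

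**Figure D4:**
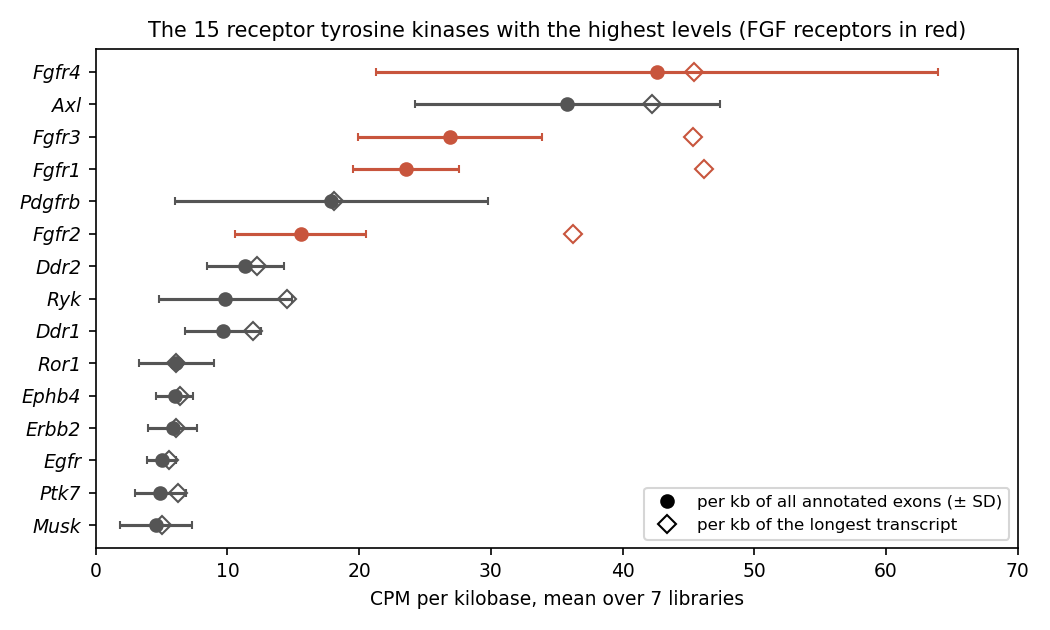
Mean CPM per kilobase over the 7 libraries of the 15 receptor tyrosine kinase genes with the highest levels, by length of all annotated exons (filled circles with SD) and of the longest transcript (open diamonds), with FGF receptors in red. Fgfr4 at 42.6 and Axl at 35.8 lead by the first measure over both diets, though Fgfr4 averaged 23.4 in HFD against 57.0 in LFD, and the first measure puts Fgfr1 at 23.6 where the second puts it at 46.2.

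Ligand genes were low in the sorted cells. Of 15 paracrine FGF genes 7 had 0 counts in every library, namely Fgf3, Fgf4, Fgf5, Fgf6, Fgf8, Fgf10 and Fgf17, and 6 had enough counts to be tested. By counting error alone, a count of 0 allows up to 3 counts, or 0.122 to 0.172 CPM before scaling. Libraries differed by more than counting error, so this is not an upper bound on the level. Fgf1, a ligand of all FGF receptors, measured 18.3 ± 2.59 CPM in HFD and 9.03 ± 4.74 CPM in LFD (log2 fold change 1.018 ± 0.46, adjusted p = 0.679). Its groups did not overlap. Fgf18, a ligand that acts on growth plate cartilage through Fgfr3, measured 8.08 ± 3.67 CPM in HFD and 5.02 ± 6.12 CPM in LFD, with 358 counts in LFD 1 and 3 in LFD 2 (log2 fold change 0.68 ± 1.06, adjusted p = 0.892). Without LFD 1 its log2 fold change was 1.98 (adjusted p = 0.379). Fgf7, a stromal ligand of the IIIb form of Fgfr2, had 334, 289 and 78 counts in HFD 2, 3 and 4, against 0, 77, 0 and 44 counts in LFD 1, 2, 3 and 4 (adjusted p = 0.708), and its fitted log2 fold change of 2.49 ± 1.59 rests on libraries at 0 and was 3.74 without LFD 2.

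Genes of the endocrine arm had few counts or none. Fgf15, Fgf23 and the co-receptor gene Klb (beta-Klotho) had 0 counts in every library, Fgf21 had 21 counts in LFD 3 and 3 in HFD 3, and Kl (Klotho) had 17 counts in HFD 3 and 54 in LFD 2. These 5 genes were not testable. Fgf15 and its receptor pair of Fgfr4 with Klb are known from the gut and liver axis of bile acid control. Of the intracellular FGF homologous factors, which do not signal through these receptors, Fgf13 measured 4.81 ± 1.53 CPM in HFD and 4.46 ± 2.90 CPM in LFD and Fgf11 less. The carrier protein gene Fgfbp3 measured 1.14 ± 0.661 CPM in HFD and 3.798 ± 1.45 CPM in LFD (log2 fold change -1.74 ± 0.75, adjusted p = 0.658).

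Between the diets no gene of the wider pathway passed. Of 96 listed genes besides the receptors 95 were in the table and 74 were tested. Of these, 0 passed an adjusted p of 0.05 in edgeR's quasi-likelihood test, which called 5 of all 14304 genes (0.035%). DESeq2, which called 2.21% of the genes it tested, and limma-voom, which called 26 genes, also gave 0. With so few genes called in all, 0 of 74 does not set this pathway apart. An unadjusted p under 0.05 was seen for 3 with higher values in HFD (741 of all genes tested, 5.18%) and 3 with lower values (336 of all, 2.35%). Groups did not overlap for 7 on the higher side (8.4% of all genes tested) and 2 on the lower (3.47%). Their median log2 fold change was 0.09, against 0.02 over all genes tested.

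Heparan sulfate genes, whose products present FGFs to the receptors, held 3 of those 6. They are also a large part of the 74 tested, with 15 enzymes and 10 core proteins. Of all genes tested 7.53% had an unadjusted p under 0.05 in edgeR's test. Hs2st1, the 2-O-sulfotransferase of the chain, measured 17.1 ± 4.57 CPM in HFD and 32.1 ± 3.93 CPM in LFD (log2 fold change -0.91 ± 0.26, adjusted p = 0.396), and its groups did not overlap. Hs6st2, a 6-O-sulfotransferase, measured 9.53 ± 4.26 CPM in HFD and 28.25 ± 15.3 CPM in LFD (-1.57 ± 0.51, adjusted p = 0.497), with overlapping groups. Hs3st3a1, a 3-O-sulfotransferase, had the opposite sign at 21.7 ± 2.63 CPM in HFD and 9.93 ± 3.64 CPM in LFD (1.13 ± 0.34, adjusted p = 0.418). The chain polymerase subunit gene Ext2 (20.9 CPM per kilobase) and the 6-O-sulfotransferase gene Hs6st1 (19.5) had the highest levels. Of 15 heparan sulfate enzymes 7 had positive and 8 negative fold changes, with a median of -0.12. Among the core proteins the syndecan gene Sdc4 (135 CPM per kilobase) and Sdc3 (92.2) had the highest levels, followed by Gpc1 (72.2) and Sdc2 (55.4), and of 10 tested 7 had positive and 3 negative fold changes (median 0.15). Gpc1, a glypican gene, measured 451 ± 103 CPM in HFD and 313.5 ± 47.1 CPM in LFD (log2 fold change 0.52 ± 0.25, adjusted p = 0.683).

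Transducers inside the cell had fold changes of both signs. Of 12 adaptor genes 7 had positive and 5 negative fold changes (median 0.14), and of 14 RAS, MAPK and STAT genes 5 had positive and 9 negative (median -0.05). Shc1 measured 139 ± 14.5 CPM in HFD and 109 ± 14.6 CPM in LFD (adjusted p = 0.693), and Frs2, the adaptor docked on the receptors, 23.0 ± 3.49 CPM in HFD and 25.1 ± 10.2 CPM in LFD. Plcg1, for the phospholipase that the receptors recruit, measured 22.5 ± 4.88 CPM in HFD and 32.4 ± 8.55 CPM in LFD (adjusted p = 0.693). The kinase gene Mapk3 had 25.5 CPM per kilobase, and Crk, with the highest level of the adaptors, 22.1. Map2k2, a MEK kinase gene, measured 81.6 ± 17.15 CPM in HFD and 110 ± 20.4 CPM in LFD (adjusted p = 0.693). Grb2, which links the receptors to RAS, measured 43.9 ± 4.76 CPM in HFD and 37.1 ± 1.99 CPM in LFD (adjusted p = 0.731). Stat3 measured 181 ± 66.8 CPM in HFD and 126 ± 31.6 CPM in LFD (log2 fold change 0.53, adjusted p = 0.697) and Hras 65.3 ± 23.9 CPM in HFD and 97.7 ± 29.1 CPM in LFD (-0.58, adjusted p = 0.703), and both signs turned when the fit held the share of erythroid counts.

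Feedback genes, which FGF signalling itself turns on, had 12 positive and 2 negative fold changes among 14 tested, with a median of 0.27. Of all 14304 genes tested 7366 had positive ones. Among the 12, the standard error exceeded the log2 fold change for all but Dusp5 and Spred1, and 0 of the 14 passed the adjusted threshold. Dusp5, a phosphatase of MAP kinases, measured 59.4 ± 9.77 CPM in HFD and 34.05 ± 12.7 CPM in LFD (log2 fold change 0.80 ± 0.31, adjusted p = 0.613), with groups that did not overlap. Spred1, an inhibitor of RAS signalling, measured 78.1 ± 9.48 CPM in HFD and 54.7 ± 11.3 CPM in LFD (0.51 ± 0.21, adjusted p = 0.637). Dusp6, the best known FGF target among phosphatases, measured 68.9 ± 1.59 CPM in HFD and 53.3 ± 32.45 CPM in LFD, and Spry1 72.5 ± 31.9 CPM in HFD and 83.9 ± 45.1 CPM in LFD. For both, the spread within LFD was larger than the difference between the diets. Dusp and Spry genes answer to other growth factors too.

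**Figure D5:**
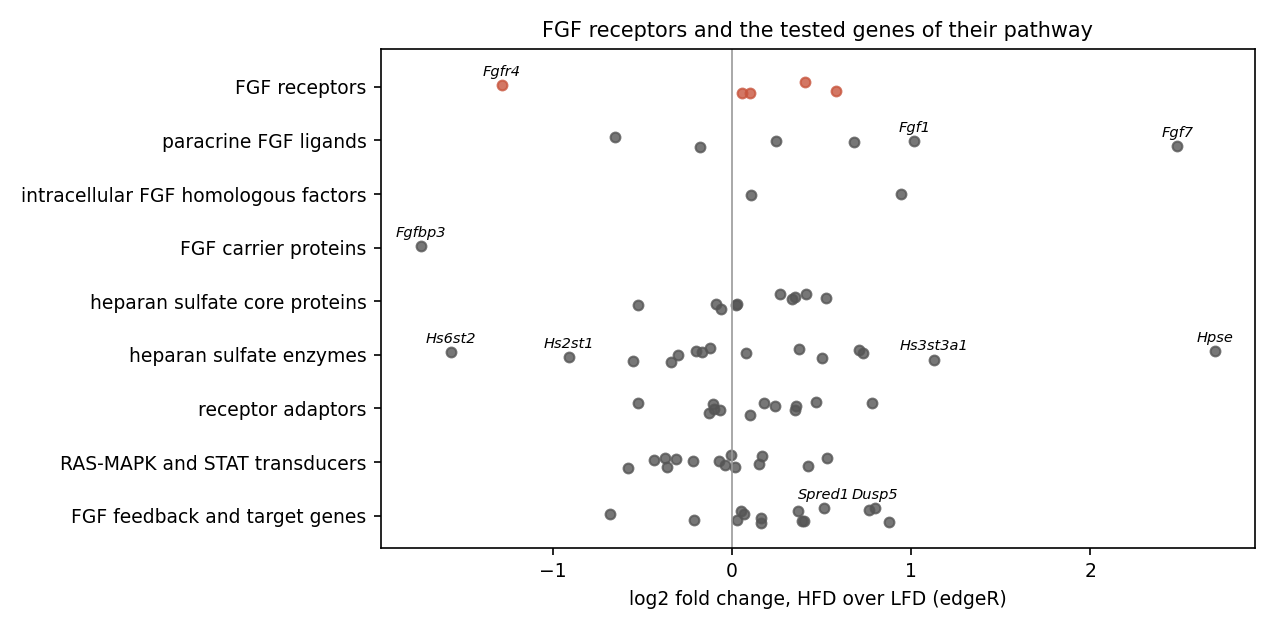
Log2 fold changes (HFD over LFD, edgeR) of the 5 receptors (red) and the 74 tested genes of the pathway (grey), in rows by role, with vertical scatter for legibility alone. Fgfr4 at -1.28 is the receptor on the negative side. None of the 74 pathway genes passed an adjusted p of 0.05, which 0.035% of all genes tested did.

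Annotated genes that share exon bases with a receptor had fewer counts than the receptor in each library. Gm16159, antisense to Fgfr1 over 164 exon bases, had 0 to 2 counts in HFD and 0 to 4 in LFD. G630022F23Rik, on the other strand at the start of Fgfr3 with 998 shared exon bases, had 0 to 2 counts in HFD and 0 to 11 in LFD. One annotated Fgfr2 transcript starts far upstream, so that the Fgfr2 span (chromosome 7, 130162451 to 133123350, minus strand) overlaps 69 annotated genes. Of these Ctbp2 alone shares exon bases with it (314, on the same strand). Ctbp2 had 231 to 550 counts in HFD and 111 to 268 in LFD, against 3330 to 5963 and 1193 to 4717 for Fgfr2. The strand setting of the counting is not given in the sources used here, so reads of overlapping genes could not be parted.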

How the data were processed

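The deposited table gives raw counts, whole numbers for each Ensembl gene, as the authors made them, and a column for each of the 7 libraries. Per the labels' protocols, libraries came from SMART-Seq v4 amplification of total RNA followed by Nextera XT. Tools named in the submitters' processing notes, without order or settings, are STAR 2.5.2b for one, then cutadapt, bcl2fastq 2.20 and HTSeq 0.11.2, besides DESeq2 1.26.0, and the build is mm10. How strand and multiply mapped reads were handled is not given in the sources used here. Molecular identifiers are not mentioned, so depth speaks of counting error alone.

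Symbols matched 42250 of 42687 identifiers, and coordinates and lengths came from GENCODE vM21. For the diet contrast, edgeR 4.0.16 (R 4.3.3) fitted TMM-scaled counts by quasi-likelihood after filterByExpr, with robust estimates and diet as the sole term, and p-values were adjusted by Benjamini-Hochberg over 14304 genes at 0.05. The fit was tested on simulated counts. A standard error is the log2 fold change over the root of F. DESeq2 1.42.0 and limma 3.58.1 served among the alternatives. Neighbouring receptor levels were compared by exact sign flips over 128 assignments. Log2 CPM used a prior count of 2. Diet groups follow the titles. Library pairs differed by more than counting noise, with chi-square over its degrees of freedom of 57.3 at least.

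The members, gene lists, promoter motifs and tests were chosen with earlier results of these data known. The rule for named genes took the receptors, from each pathway list the 3 tested members of smallest unadjusted p and the 2 of highest level, the 5 highest other receptor tyrosine kinases, the 3 closest profiles for each receptor, the 2 most abundant markers of each list and genes overlapping a receptor. Most of those markers, and overlapping genes that share no exon bases, are not printed. One gene that the rule gives is not reported here. Frs2, Myh11, the genes at 0 and the other satellite cell markers were named after their values were seen.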

Additional observations from a re-analysis of the deposited data

Results flagged for a closer look

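In 1 of the 4 LFD libraries, a value lay far from the other 3 for Fgfr4 and for 4 genes of its pathway, 5 of the 36 values examined. LFD 1 had 286.7 CPM of Fgfr4, where the gap to the next library was 0.862 of the group's range, beyond the 95% limit of Dixon's test for 4 samples. Spry2, a feedback inhibitor, had 1.72 CPM in LFD 1. Fgf11 had 2.91 CPM in LFD 4, with 0 to 12 counts in the other LFD libraries and 98 counts in HFD 2. Fgf21 had 1.31 CPM in LFD 3 and Kl had 3.38 CPM in LFD 2, both with 0 counts in the other LFD libraries. Chance flags about 1 in 20 such groups where values are normally distributed, which counts at or near 0 are not. For Fgf21 and Kl the other libraries at 0 fixed the flag in advance. The number flagged is therefore not set against that rate. The satellite cell markers summed to 816 CPM in LFD 1 and 1020 CPM in LFD 3, the highest. Acta2, a smooth muscle and myofibroblast gene, had 4382 counts in LFD 1 against 1181 to 1591 in the other LFD libraries. Elsewhere in its marker list, Rgs5 had 18 counts in LFD 1 against 0 to 42, and Myh11 had 50 against 0. Rgs5 and Myh11, unlike Acta2, had higher means in HFD. Their part in the Fgfr4 value was not tested.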

How the results depend on the processing

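No FGF pathway gene was called in any of the 16 alternative fits. The number of all genes called, 5 with edgeR, was 8 with no filter beyond 1 count, 0 with at least 10 counts in 4 libraries, 359 with DESeq2, 26 with limma-voom and quality weights, 1 with the erythroid share in the model, and 1 to 6 when each library was left out (3 without LFD 1, and 1 without LFD 2 or any of the HFD libraries). With the replicate number as a block it was 0. Same-numbered libraries did not deviate together (correlations of -0.095, 0.026 and -0.062, with -0.172 to 0.189 for differently numbered ones). With only 3 and 4 libraries in the groups, this check cannot exclude that the numbers pair the libraries. The cause of these shifts was not tested.

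The log2 fold change of Fgfr4 ran from -1.37 to -1.01 over all alternatives, and was -1.07 with the replicate block and -1.21 with the erythroid share. The ranges were 0.38 to 0.82 for Fgfr2, 0.00 to 0.62 for Fgfr3, -0.02 to 0.20 for Fgfr1 and -0.22 to 0.17 for Fgfrl1. The log2 fold change of Fgf18, 0.68, was 2.38 with the replicate block (adjusted p = 0.49), and that of Fgf7, 2.49, was 3.75 with limma-voom. With the erythroid share in the model, Hs6st2 had -2.16, Stat3 had -0.10 and Hras 0.04, the last 2 with signs opposite to the fit without it.

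Receptor order changed with length. The mean log2 ratio of Fgfr4 over Fgfr3, 0.55, was -0.11 by the longest transcript, -0.47 in CPM with no length and -0.39 in the HFD libraries alone. That of Fgfr3 over Fgfr1, 0.17, was -0.05 by the longest transcript and -0.30 with no length. That of Fgfrl1 over Fgfr4, 0.38, was -0.18 in the LFD libraries alone. Within a diet 3 or 4 libraries cannot reach an exact p under 0.25 or 0.125. Leaving out each library turned no ratio.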
